A study of Homo sapiens with 2 samples.

Results

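The microRNAs (miRNAs) miR-205 and miR-203 are described here in MCF10A cells, with and without withaferin A. Members were every locus of the deposited count table named miR-205, miR-203a or miR-203b, with any arm. These were 2 of 947 loci, hsa-miR-205-5p on chromosome 1 and hsa-miR-203a-5p on chromosome 14, and 450 of the 947 loci carried a miRNA name. No locus was named miR-203b, so it could not be analysed. MCF10A is an immortalised, non-tumorigenic line of human mammary epithelium. Withaferin A is a steroidal lactone made by the plant Withania somnifera. Small RNA was sequenced from MCF10A cells treated with withaferin A (2 µM, 24 h, n = 3 libraries) and from untreated MCF10A cells (n = 3 libraries). Nothing in the labels says that the libraries came from separate cultures, so p-values measure only the spread between libraries, which may be technical.

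miRNAs are cut from hairpin transcripts, loaded into Argonaute proteins and guided by their seed, bases 2 to 8, to matching messenger RNAs, which they repress. miR-205 is a miRNA of basal and stratified epithelia and, with the miR-200 family, represses ZEB1 and ZEB2, the transcription factors that drive epithelial cells toward a mesenchymal state. miR-203 rises as keratinocytes leave the basal layer and represses TP63, the transcription factor that maintains basal cells.

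The mature sequences of both arms are shown because the table names only the 5p arm of each hairpin. Capitals mark the seed, and sequences and positions are those of RefSeq on GRCh38.p14.
miR-205-5p: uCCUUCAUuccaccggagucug
miR-205-3p: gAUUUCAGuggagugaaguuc
miR-203a-5p: aGUGGUUCuuaacaguucaacaguu
miR-203a-3p: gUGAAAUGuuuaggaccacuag
Among 2370 mature human names in RefSeq, each of these 4 seeds belonged to 1 name, so the 2 members shared no seed with each other or with any other named locus of the table. For miR-203a the 3p arm is the usual abundant product, and only the 5p name is listed, so the count at that locus may stand for the whole hairpin. The counting rule is not given in the sources used here, so the same limit applies to the other loci named by a 5p arm.

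The hairpins are shown next because the position of the arms bears on what a locus can hold. Capitals here mark the mature arms, the 5p arm first.
MIR205: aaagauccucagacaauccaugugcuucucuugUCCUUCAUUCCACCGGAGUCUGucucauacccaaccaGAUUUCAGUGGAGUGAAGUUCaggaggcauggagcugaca
MIR203A: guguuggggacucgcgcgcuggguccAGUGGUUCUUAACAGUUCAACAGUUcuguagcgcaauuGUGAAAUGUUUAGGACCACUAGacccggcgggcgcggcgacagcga
MIR205 lies on the plus strand at chr1:209432133-209432242, within the noncoding host gene MIR205HG in GENCODE release 29. The 7 annotated MIR205HG exons that overlap the hairpin all start at 209432204. That start lies past the end of miR-205-5p with 16 bases between them, so none of those exons covers miR-205-5p (209432166 to 209432187), while they cover all but the first base of miR-205-3p (209432203 to 209432223). MIR203A lies on the plus strand at chr14:104117405-104117514, and the only other gene annotated there is MIR203B, on the opposite strand. The 2 hairpins overlap by 86 bases. miR-203a-3p overlaps miR-203b-5p by 21 bases and miR-203a-5p overlaps miR-203b-3p by 20 bases. Whether counting used the strand is not given in the sources used here, so reads of these hairpins cannot be told apart.

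Library totals set what can be seen of each member. The withaferin A libraries held 340 to 430 counts, 1188 in all, and the untreated libraries 1855838 to 2615684. Between 26 and 33 loci had a count in a withaferin A library, against 801 to 841 in an untreated one. By the order in which the labels list 2 library kits, each group was made with a different one, so kit, depth and treatment cannot be told apart in any difference given here. In these bulk samples fewer cells and less RNA per cell cannot be told apart either. Of the markers for basal epithelium, miR-205-5p was counted in all 6 libraries. miR-203a-5p and miR-944 were counted in all 3 untreated libraries, at a summed share of 0.0214% to 0.0252%, and had 0 counts after withaferin A. miR-944 alone took 0.00467% to 0.00668%. Other cell types' markers also had 0 counts after withaferin A and were low in untreated libraries. The untreated shares of all these markers except miR-205-5p lay under 0.253%, the most that 0 of 1188 counts allow. Their 0 counts after withaferin A therefore show no difference between them. The summed share ran from 0.000661% to 0.00119% for luminal miR-375. It ran from 0.00436% to 0.00533% for mesenchymal miRNAs (5 of 6 names found), from 0.00593% to 0.0111% for blood miRNAs (4 of 5) and from 0.00399% to 0.00778% for liver and muscle miRNAs (1 of 6).

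miR-205-5p had a larger share of counts in the withaferin A libraries than in the untreated libraries, and whether that difference passed a test depended on how the libraries were scaled. It had 137 of 418, 160 of 430 and 98 of 340 counts in withaferin A libraries 1, 2 and 3. These were shares of 32.8% (exact Clopper-Pearson 95% interval 28.3 to 37.5), 37.2% (32.6 to 42.0) and 28.8% (24.1 to 34.0). In untreated libraries 1, 2 and 3 it had 180728, 160976 and 134953 counts, or 7.03%, 6.15% and 7.27% of the total. The groups did not overlap, and the 3 withaferin A intervals overlapped one another. The share of all loci whose groups do not overlap is not given here, so this separation is not shown to be particular to miR-205-5p. The mean share was 32.9% ± 4.20 after withaferin A and 6.82% ± 0.588 in untreated cells (SD, n = 3 each), a difference of 26.1 percentage points. The exact two-sided permutation p was 0.1, the smallest that 3 against 3 allows. miR-205-5p was the most abundant locus in all 3 withaferin A libraries and the second in all 3 untreated libraries, behind miR-21-5p. At the untreated share, 81.0 of the 1188 withaferin A counts would be miR-205-5p, and 395 were counted. Intervals cover counting error only.

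**Figure D1:**
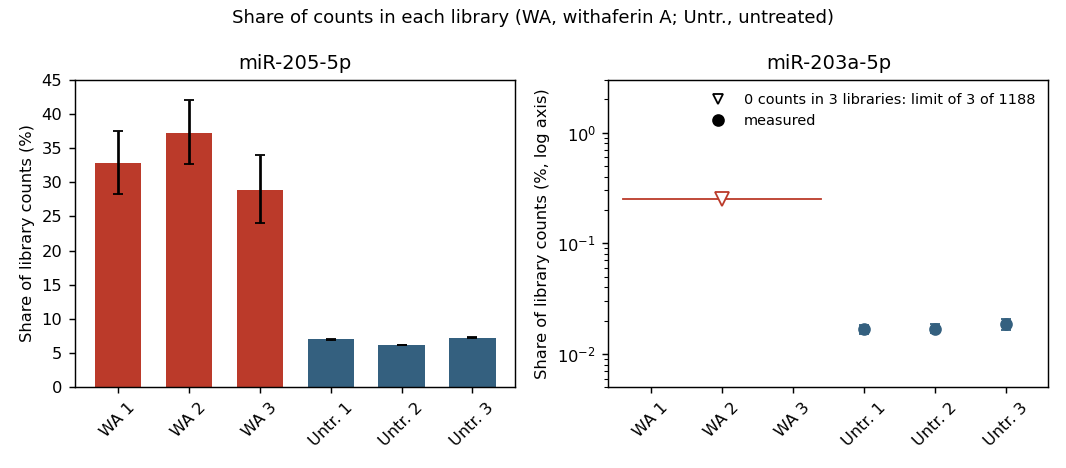
Share of library counts (%) of miR-205-5p (left, linear axis) and miR-203a-5p (right, log axis) in the 3 withaferin A (WA) and 3 untreated (Untr.) libraries, with exact 95% intervals. The WA shares of miR-205-5p run from 28.8% to 37.2% and the untreated ones from 6.15% to 7.27%; the red line for miR-203a-5p is the limit of 3 of 1188 counts (0.253%), since it had 0 counts.

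The share depends on what else is in the library. miR-21-5p, the leading untreated miRNA and one often raised in carcinomas, took 2.49% ± 0.676 of withaferin A counts and 29.4% ± 2.34 of untreated counts. With miR-21-5p left out of every total, miR-205-5p took 33.8% ± 4.17 in withaferin A libraries and 9.68% ± 1.13 in untreated libraries (exact two-sided permutation p = 0.1, n = 3 each). With 1 locus kept per name, the one with the most counts, the shares were 42.1% ± 5.40 and 7.44% ± 0.583. Whether gene copies with the same name hold the same reads is not known. The range was 36.8% to 47.6% after withaferin A, against 6.77% to 7.86% in untreated libraries.

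Scaling by the trimmed mean of M values (TMM), which sets library factors from loci counted in both libraries compared, changed this order. Only 26, 26 and 33 loci had a count in withaferin A libraries 1, 2 and 3, so their factors rest on few loci. TMM factors were 0.767, 1.21 and 3.32 in withaferin A libraries 1, 2 and 3, and 0.688, 0.668 and 0.707 in untreated libraries. As a percentage of the TMM-scaled total, miR-205-5p stood at 42.9%, 30.8% and 8.74% in withaferin A libraries 1, 2 and 3. It stood at 10.2%, 9.22% and 10.3% in the untreated libraries. On this scale withaferin A library 3 lay below all 3 untreated libraries, while the other two lay above them. In the authors' normalized score, which is the count times 1 factor per library, miR-205-5p was 95631, 116638 and 76445 in withaferin A libraries and 81516, 74423 and 83518 in untreated libraries. There too withaferin A library 3 fell among the untreated values, so the groups overlapped.

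**Figure D2:**
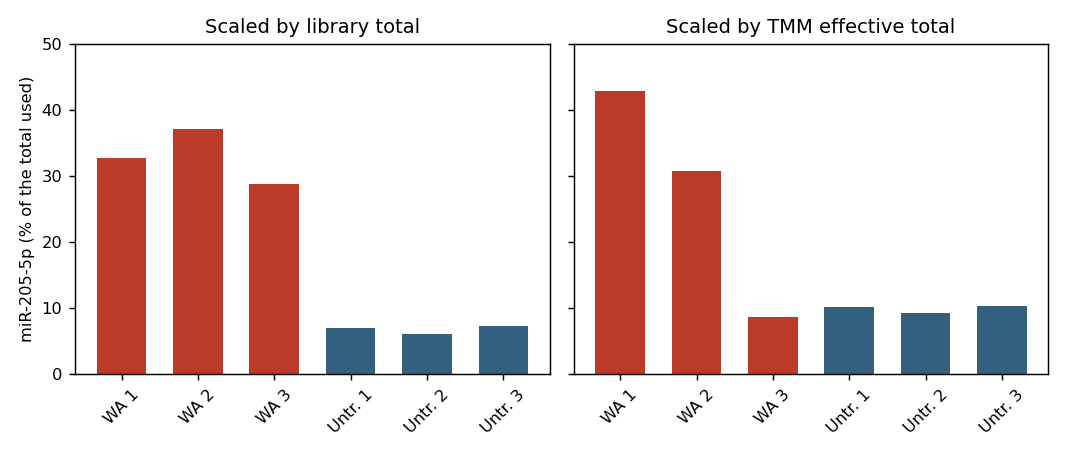
miR-205-5p in each library as a percentage of the library total (left) and of the TMM effective total (right), for the 3 withaferin A (WA) and 3 untreated (Untr.) libraries. By library total all WA bars are above all untreated bars; with TMM, WA library 3 is at 8.74%, below the untreated 9.22% to 10.3%.

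Tested over all 303 loci that passed the low-count filter in edgeR (quasi-likelihood F test, TMM), miR-205-5p had a log2 fold change of 1.44 ± 0.58 (SE) and was not called (adjusted p = 0.161). Neither of the 2 members was called there, against 17.5% of all loci tested (0.66% higher and 16.8% lower). Of the 303 loci, 261 had 0 counts after withaferin A, so they passed the filter only through the untreated libraries. With library totals in place of TMM the log2 fold change was 2.28 ± 0.21 and miR-205-5p rose (edgeR adjusted p = 0.000344), 1 of 6 loci called higher, which were 1.98% of the 303. With 1 locus per name and TMM it also rose (1.99 ± 0.40, edgeR adjusted p = 0.00381, 2.22% of 270 loci called higher). It was 0.22 and not called with relative log expression (RLE) factors (edgeR adjusted p = 0.731) and in DESeq2 (adjusted p = 0.427). In limma on log2(score + 1) of the authors' values it was 0.25 (adjusted p = 0.211).

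Single libraries moved the TMM value. With the same 303 loci kept, the log2 fold change was 1.89 ± 0.24 without withaferin A library 3, and miR-205-5p was then called higher (edgeR adjusted p = 0.00563, 1.98% of loci called higher). It was also called without untreated library 3 (1.47 ± 0.54, edgeR adjusted p = 0.0351, 2.31% called higher). Without untreated library 1 it was 0.49 ± 0.41 (edgeR adjusted p = 0.518), and without any 1 of the other 3 libraries it was 0.97 to 1.39 and not called. With library totals and the same loci, miR-205-5p was called higher without each of the 6 libraries in turn (2.18 to 2.36), where 1.98% to 2.64% of loci were called higher.

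**Figure D3:**
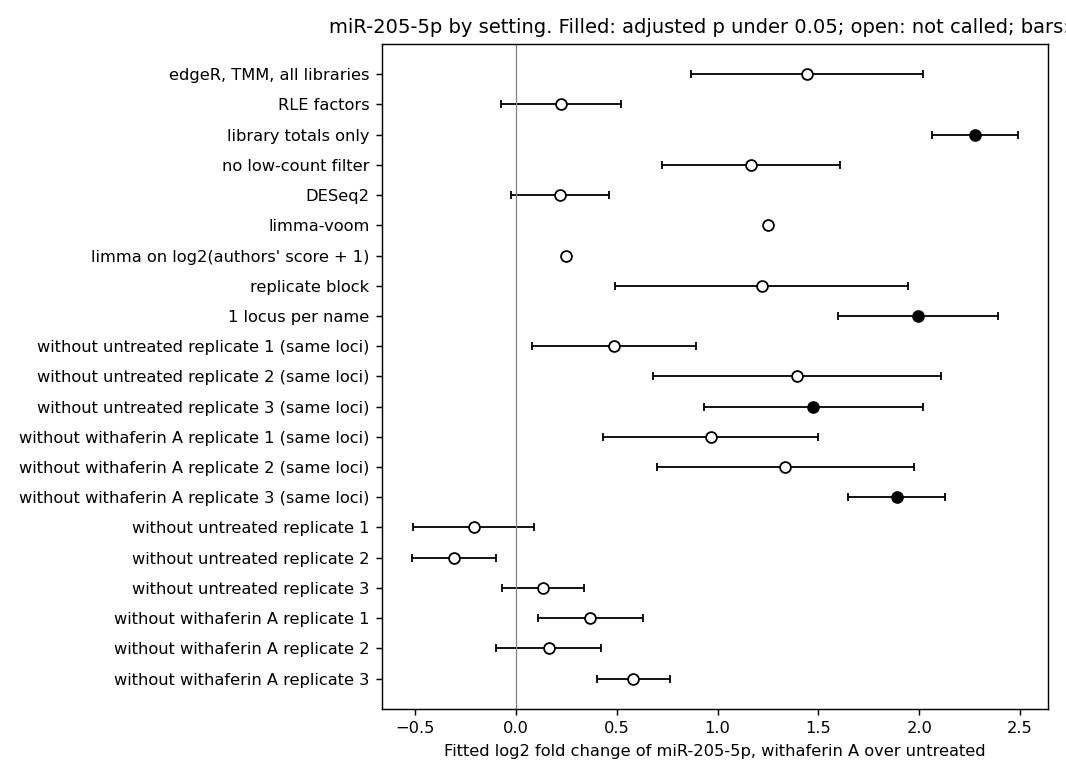
Fitted log2 fold change of miR-205-5p, withaferin A over untreated, in each fit with its SE where the method gives one; filled points have an adjusted p under 0.05. The 4 filled points lie between 1.47 and 2.28; "same loci" keeps the 303 loci of the full fit, and the last 6 fits redo the low-count filter on the libraries left.

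miR-203a-5p was a minor miRNA of untreated cells and was below what the withaferin A libraries can show. It had 430, 443 and 343 counts in untreated libraries 1, 2 and 3, or 167, 169 and 185 CPM (counts scaled to 1 common library total). It had 0 counts in each of the 3 withaferin A libraries. The untreated libraries lay close together, with a mean share of 0.0174% ± 0.000960 (SD, n = 3) and ranks of 132 to 143 among all loci. At that share 0.206 of the 1188 withaferin A counts would be miR-203a-5p, and the 0 of 1188 counts allow a share of up to 0.253% (2525 CPM). A total of about 17260 counts would be needed for 3 expected counts. At this depth a lower level of miR-203a-5p after withaferin A was not detectable, nor was a higher one up to that limit, and no fold is given (edgeR adjusted p = 0.688). In untreated libraries 420, 363 and 393 counts of miR-205-5p were seen for each count of miR-203a-5p (mean 392 ± 28.5, SD, n = 3). After withaferin A the ratio was at least 131.7 (395 counts against the limit of 3), a bound below all 3 untreated values.

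A ratio of 2 miRNAs within a library does not depend on library scaling. The mature forms of miR-205-5p, miR-21-5p and let-7a-5p are each 22 bases long, and counts were not divided by length. Per count of miR-21-5p, the counts of miR-205-5p were 17.1, 16.0 and 8.91 in withaferin A libraries 1, 2 and 3, and 0.237, 0.228 and 0.230 in untreated libraries. The groups lay far apart, 58.0-fold between geometric means (log2 difference 5.86, exact two-sided permutation p = 0.1, and 0.2 adjusted over the 2 ratios tested, n = 3 each). let-7a-5p, a member of the let-7 family of growth-repressing miRNAs, gave another picture. miR-205-5p to let-7a-5p (chromosome 11 locus) was 1.56, 1.95 and 1.58 in withaferin A libraries and 2.09, 1.47 and 2.94 in untreated libraries. These groups overlapped, with a log2 difference of −0.30 (exact two-sided permutation p = 0.5, also after adjustment, n = 3 each). A p of this size does not show that both miRNAs changed alike.

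**Figure D4:**
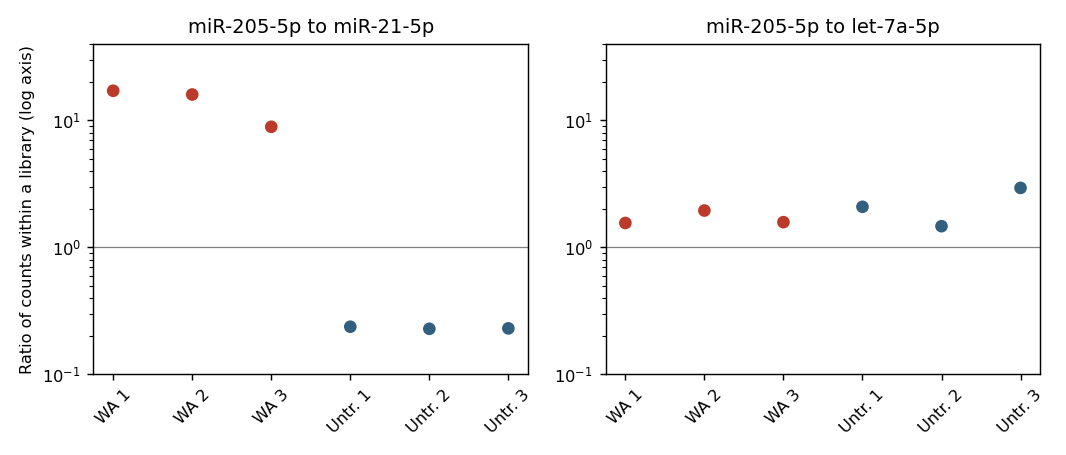
Ratio of miR-205-5p counts to miR-21-5p counts (left) and to let-7a-5p counts (right) in each of the 3 withaferin A (WA) and 3 untreated (Untr.) libraries, on log axes; the grey line is a ratio of 1. The ratio to miR-21-5p is 8.91 to 17.1 in WA libraries and 0.228 to 0.237 in untreated ones, while the ranges of the ratio to let-7a-5p, 1.56 to 1.95 and 1.47 to 2.94, overlap.

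Other partners had too few counts after withaferin A for a value in every library. miR-221-5p had 1, 0 and 1 counts in withaferin A libraries, which gave a pooled miR-205-5p to miR-221-5p ratio of 197.5 (exact 95% interval 54.3 to 1637), against 4.53 to 9.26 over the untreated libraries. That interval lay wholly above the untreated range, but it rests on 2 pooled counts of miR-221-5p and leaves out spread between libraries. miR-31-5p had 0, 2 and 0 counts, with the same pooled ratio and interval, against 68.3 to 72.6 in untreated libraries. Here the untreated range lay inside the interval, so a difference was not detectable. miR-200c-5p and miR-222-5p had 0 counts after withaferin A and no ratio was formed.

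The 3 named miRNAs whose pattern over the 6 libraries was most like that of miR-205-5p were let-7e-5p, let-7a-5p and miR-125a-5p. Likeness was the distance between mean-centred log2(CPM + 1) profiles, over the 8 names with at least 10 withaferin A counts, and the distances were 0.453, 0.840 and 1.20. let-7e-5p took 1.91%, 1.63% and 1.18% of counts in withaferin A libraries 1, 2 and 3, and 0.335%, 0.308% and 0.293% in untreated libraries. Its higher share in every withaferin A library follows in part from its choice by likeness. Like miR-205-5p, let-7e-5p was called with library totals (2.35, edgeR adjusted p = 0.00249) but not with TMM (1.29, edgeR adjusted p = 0.207). let-7c-5p, not among the nearest 3, was also higher in every withaferin A library. It was called higher with both scalings (edgeR adjusted p = 0.000344 with library totals and 0.0311 with TMM). let-7a-5p took 19.5% ± 1.45 after withaferin A and 3.34% ± 0.859 in untreated cells. miR-125a-5p took 1.16% ± 0.277 and 0.425% ± 0.0592 (SD, n = 3 each), and it was called with neither scaling (edgeR adjusted p = 0.0551 with library totals and 0.792 with TMM).

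Of 9 miRNA names reported in basal or stratified epithelium, 8 were found, at 9 loci, and 8 loci passed the low-count filter. With TMM 0 of the 8 were called higher and 2 lower, miR-221-5p and miR-222-5p, where 16.8% of all loci were called lower. With library totals miR-205-5p was called higher and 0 were called lower (1.98% and 3.63% of all loci; 3 of the 8 had an unadjusted p under 0.05 in edgeR, and DESeq2 called 2 lower, where it called 44.2% of loci lower). miR-221-5p, from a hairpin whose 3p arm represses the cell-cycle inhibitor CDKN1B, took 0.178% ± 0.156 after withaferin A and 1.09% ± 0.287 in untreated cells, and it fell with TMM (log2 fold change −3.95 ± 0.75, edgeR adjusted p = 0.0127). It was not called with library totals (−2.68, edgeR adjusted p = 0.0825). miR-222-5p, its neighbour on chromosome X, had 0 counts after withaferin A and 0.612% ± 0.187 of untreated counts (edgeR adjusted p = 0.0192 with TMM, 0.0825 with library totals). The limit of 3 of 1188 pooled counts lay 2.42-fold below that mean share. By the exact 95% interval the ratio of withaferin A to untreated share could be up to 0.507. Both bounds cover counting error only. With 0 counts, miR-222-5p passed the low-count filter only through the untreated libraries, so its call does not by itself show a fall. With the same 303 loci kept, neither miR-221-5p nor miR-222-5p was called without withaferin A library 3 (edgeR adjusted p = 0.0788 and 0.0910). There 5.94% of loci were called lower. With library totals and those loci, both were called lower without untreated library 3 (10.2% of loci called lower) and miR-222-5p without untreated library 2 (7.26%). Both had smaller shares after withaferin A, where miR-205-5p had a larger one.

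Over all 6 libraries edgeR called none of the rest of the basal list, in either direction, with TMM or with library totals, and none had an unadjusted p under 0.05. miR-125b-5p, at 2 loci with near-equal counts, had 1, 2 and 6 counts in withaferin A libraries, a mean share of 0.823% ± 0.823, and 0.397% ± 0.0146 of untreated counts at the chromosome 11 locus. Its log2 fold change there was −0.36 with TMM and 0.95 with library totals, so even its sign depended on the scaling (edgeR adjusted p = 0.792 and 0.624). Without withaferin A library 3, and with the low-count filter redone, both miR-125b-5p loci were called lower (−1.95 and −1.92, edgeR adjusted p = 0.0445 and 0.0452, where 12.7% of 418 loci were called lower). With the 303 loci kept they were not (−0.70 and −0.66). miR-31-5p had 2 counts in all after withaferin A, where the untreated share would give 1.15. miR-944, encoded in an intron of TP63, averaged 56.6 CPM in untreated libraries. miR-184 had 8 counts over the 3 untreated libraries and did not pass the low-count filter. Both had 0 counts after withaferin A, where limma-voom called miR-944 higher (59.4% of all loci called higher) and limma on log2(score + 1) called both lower (95.3% called lower). The median fitted log2 fold change was −2.19 over the 8 basal loci and −8.94 over all 303. Of these, 3 and 261 had 0 counts after withaferin A, where a fitted value depends on the prior count and is no size. With those set to the limit of 3 of 1188 counts, the median log2 ratio of shares was at most 0.95 and 4.24.

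**Figure D5:**
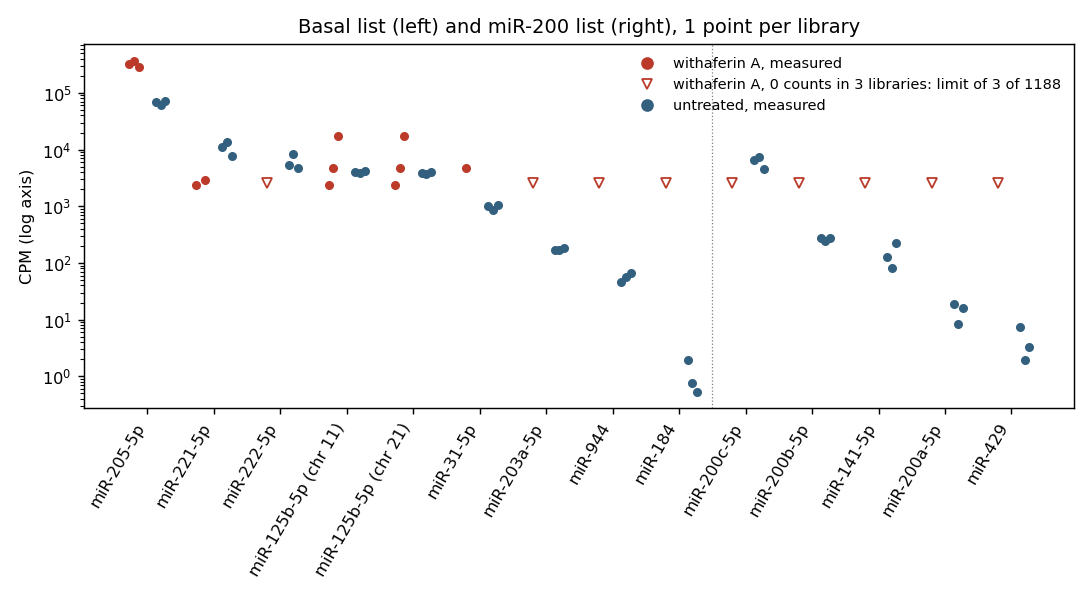
CPM (log axis) of the basal list (left of the dotted line) and the miR-200 list (right) in each library; a triangle marks a locus with 0 counts in all 3 withaferin A libraries, at the limit of 3 of 1188 counts (2525 CPM), and single libraries at 0 are not drawn. miR-205-5p is the one locus whose 3 withaferin A points all lie above its untreated points among loci with a count in every library, and 9 of the 14 loci are triangles.

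The miR-200 family shares the ZEB1 and ZEB2 targets of miR-205, and its 5 members (miR-200a, miR-200b, miR-200c, miR-141 and miR-429) all had 0 counts after withaferin A. Their summed share of untreated counts was 0.508% to 0.762%. The loci of miR-200a, miR-200b, miR-200c and miR-141 carry 5p names, and whether a count stands for that arm or the whole hairpin is not known. Of the 3 family members that passed the filter 1 was called lower with TMM, miR-200c-5p, against 16.8% of all loci. It took 0.615% ± 0.142 of untreated counts (SD, n = 3, edgeR adjusted p = 0.0162). The limit of 3 of 1188 pooled counts lay 2.44-fold below that mean share. By the exact 95% interval the ratio of withaferin A to untreated share could be up to 0.504. Both bounds cover counting error only. With 0 counts after withaferin A, miR-200c-5p passed the filter only through the untreated libraries, so its call does not by itself show a fall. With library totals 0 were called in edgeR (adjusted p = 0.0739 for miR-200c-5p, 1 at an unadjusted p under 0.05, where 3.63% of all loci were called lower), and DESeq2 called 1 lower, where it called 44.2% of loci lower. With the 303 loci kept miR-200c-5p was not called without withaferin A library 3 (TMM, edgeR adjusted p = 0.0756, 5.94% of loci called lower). With library totals it was called lower without untreated library 2 or 3 (edgeR adjusted p = 0.0316 and 0.00190), where 7.26% and 10.2% of loci were called lower. The other 4 members averaged 4.18 to 266 CPM in untreated libraries, below the 2525 CPM that 0 of 1188 counts allow. The median fitted log2 fold change of the 3 tested members was −11.28, at 0 counts throughout, and with the limit in place of 0 the median log2 ratio was at most 3.25.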

How the data were processed

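Counts per locus were used as deposited by the authors for 947 loci in 6 libraries. The tools named per the submitters' processing notes are cutadapt, Trim Galore and edgeR, and the build is GRCh38.p7. The aligner, locus finding and counting rule are not given in the sources used here. The authors' deposited normalized values, a score rounded to whole numbers, lay within 1 unit of the count times 1 factor per library at all 660 loci that have them. Library columns were matched to groups by the sample names in each record. The test was the one of edgeR 4.0.16, run in R 4.3.3 (TMM, filterByExpr with a minimum count of 10, quasi-likelihood F test, Benjamini-Hochberg adjustment over all loci tested, threshold 0.05). The SE is the absolute log2 fold change divided by the square root of F. DESeq2 1.42.0 and limma 3.58.1 were alternatives. The edgeR script was tested on simulated data, with its pass rule set on libraries of equal depth only, unlike those here.

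The members and lists were chosen with earlier results of these data known. Named miRNAs were the members, the basal and miR-200 lists, the ratio partners and the 3 nearest patterns. Chi-square per degree of freedom was 1.32 to 1.70 between withaferin A libraries and 45.1 to 140.6 between untreated ones, and all were kept as replicates. Totals were 340 to 430 counts after withaferin A and 1855838 to 2615684 in untreated libraries.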

Additional observations from a re-analysis of the deposited data

How the results depend on the processing

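The share of miR-205-5p kept its direction without each library in turn (24.0 to 28.2 percentage points higher after withaferin A), with the authors' score (26.1) and under each other denominator (24.1 to 34.6, the highest with 1 locus per name), and so did its ratio to miR-21-5p (log2 difference 5.69 to 6.16 without 1 library) and to let-7a-5p (−0.55 to −0.05). With 1 added to both counts the log2 difference of the ratio was 0.36 for miR-31-5p and 3.67 for miR-221-5p, against 1.49 and 5.03. The miR-205-5p log2 fold change (1.44) passed with library totals only (2.28) and with 1 locus per name (1.99), and it was −0.31 to 0.58 without 1 library, 0.49 to 1.47 (untreated) and 0.97 to 1.89 (withaferin A) with the 303 loci kept as well, and 2.21 to 2.33 (untreated, 2.30 for replicate 1) and 2.18 to 2.36 (withaferin A) with library totals besides. It turned below 0 without untreated replicate 1 (−0.21) or 2 (−0.31), where the low-count filter left 10 loci; with the 303 loci kept it was 0.49 and 1.39. The fitted value of miR-203a-5p, which has 0 counts after withaferin A, was −10.67 and no measure of size. limma-voom gave 1.79 (adjusted p = 0.00622, called higher at 0 counts) and limma on the authors' score −7.68, the causes of which were not tested.

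Loci called numbered 53 with TMM, 17 with library totals only and 234 in limma-voom, each of 303 tested. They numbered 631 of 660 on the authors' score and 25 with the replicate block. With the low-count filter redone, 52 to 59 were called without a withaferin A library and 6 to 9 without an untreated one. The filter left far fewer loci to test without an untreated library, so those smaller counts do not show a smaller share of loci called. In the basal list 2 were called, against 1 with library totals only. limma-voom called 4 (2 higher and 2 lower), where it called 59.4% of all loci higher. On the score 4 were called, all lower, where 95.3% of all loci were called lower. Without 1 library 0 to 4 were called (4 without withaferin A replicate 3, where 12.7% of 418 loci were called lower). The counts of 0 came from fits without an untreated library, where miR-205-5p was the only basal locus tested. With the 303 loci kept 1 to 3 were called without 1 library, by TMM or by library totals. In the miR-200 list 1 was called, against 0 with library totals only. limma-voom called 2, miR-200c-5p lower and miR-141-5p higher at 0 counts, and on the score 5 were called, all lower. Of this list 1 was called without each withaferin A library, and 0 or 1 without 1 library with the 303 loci kept, by TMM or by library totals. The fits without an untreated library tested none of it. Whether replicate numbers pair the libraries could not be judged. Same-numbered libraries correlated at −0.18, −0.14 and 0.09 over 11 loci, and differently numbered ones at −0.44 to 0.67. With the replicate block miR-205-5p was 1.22 (adjusted p = 0.383). Depth limits all values after withaferin A: a locus with 0 of 1188 counts can still have a share of up to 0.253%. The fits with 1 locus per name, with the 303 loci kept and with miR-21-5p left out were chosen after seeing the data.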
